A study of Rattus norvegicus with 17 samples.

Results

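The cells described here are 136 sensory neurons of the rat dorsal root ganglion with a high summed level of 4 genes led by Gzmbl3, a granzyme B-like serine protease gene, and including Lpar3, a receptor for lysophosphatidic acid. They were chosen by their own counts from 830 kept cells, which are the cells with at least 2000 detected genes and at least 20000 unique molecular identifiers (UMIs) among 1040 cells in 16 batches. A cell was a member when Gzmbl3, Dapk2 (a death-associated protein kinase), Lpar3 and Crct1 (a cysteine-rich C-terminal protein) together reached at least 100 CPM, that is UMIs of a gene scaled to a fixed total per cell, and exceeded the sum of Ntsr1 and Chrna3. Its Th had to lie below 50 CPM, its Clmp below 30 CPM, and its Sst and Nppb together below 300 CPM. Of the 183 cells with at least 100 CPM of the 4 genes, 8 failed on Ntsr1 and Chrna3, 1 on Th, 21 on Clmp and 22 on Sst and Nppb, and some failed on more than 1. The members nearest the threshold had 107, 107 and 113 CPM of the 4 genes, and the otherwise eligible cells just below it had 94.0, 93.3 and 92.0 CPM.

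The study compared the growth capacity of sensory neuron subtypes. It took neurons of the L4 and L5 ganglia of both sides from adult naive male Sprague Dawley rats, picked them singly by mouth pipette and amplified their polyadenylated RNA with a modified Smart-seq2 protocol that tags molecules with UMIs. The labels hold 1 group, DRG neurons, in 17 batches of pooled cells, and the counts given for batch 21 repeat those of batch 20, so they were used once. The protocols speak both of a short plating of 15 minutes and of culture for 72 hours, and the labels tie neither to a batch, so nothing here separates the 2 times. No treatment was compared. The members were set against the other cells of the same batches: 97 cells led by Ntsr1 and Chrna3, 25 by Th, 77 by Sst and Nppb, and 495 others, of which 277 had at least 30 CPM of Clmp. No source says whether batches came from different animals, so every p-value measures only the spread between batches, which may be technical.

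Non-peptidergic nociceptors are small sensory neurons that signal damaging heat, pressure and itch. During development they come to depend on Ret, the receptor of the GDNF family, and the transcription factor Runx1 is known to drive that step in mice. They hold little of the peptides CGRP (Calca) and substance P (Tac1), and they sense ATP through the channel P2X3 (P2rx3). Lysophosphatidic acid, the lipid that Lpar3 binds, is known as an itch and pain mediator.

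The stretches around the start sites of the genes on which the results turn are shown so that a reader can see what each gene's promoter region holds. They run from 250 bases before to 50 bases after the annotated start on the gene's strand and come from RefSeq, build GRCr8, which is not the build the counts were made on. Capitals mark TGTGGT, the core of the sequence that Runx factors are known to bind, searched on both strands, where it reads ACCACA on the other. The Gzmbl3 stretch lies on the minus strand at chr15:34339839-34340138 and is 49.0% G or C. The Dapk2 stretch lies on the plus strand at chr8:75601422-75601721 and is 68.7% G or C. The Lpar3 stretch lies on the plus strand at chr2:237809095-237809394 and is 56.3% G or C. The stretch of Chrne, the epsilon subunit of the muscle acetylcholine receptor and one of the genes whose batch values in members and other cells did not overlap, lies on the minus strand at chr10:55834105-55834404 and is 55.3% G or C.
Gzmbl3: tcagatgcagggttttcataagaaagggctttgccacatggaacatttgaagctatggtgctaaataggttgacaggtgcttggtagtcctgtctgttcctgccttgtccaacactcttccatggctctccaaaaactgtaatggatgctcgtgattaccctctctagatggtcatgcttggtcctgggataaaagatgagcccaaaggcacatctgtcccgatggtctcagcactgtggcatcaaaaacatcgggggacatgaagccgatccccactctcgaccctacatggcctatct
Dapk2: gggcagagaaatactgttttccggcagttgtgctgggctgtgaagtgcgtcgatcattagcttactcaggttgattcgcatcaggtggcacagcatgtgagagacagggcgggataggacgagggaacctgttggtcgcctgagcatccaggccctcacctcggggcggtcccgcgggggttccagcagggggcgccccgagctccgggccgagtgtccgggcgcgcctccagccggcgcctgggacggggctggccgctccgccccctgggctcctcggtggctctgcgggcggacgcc
Lpar3: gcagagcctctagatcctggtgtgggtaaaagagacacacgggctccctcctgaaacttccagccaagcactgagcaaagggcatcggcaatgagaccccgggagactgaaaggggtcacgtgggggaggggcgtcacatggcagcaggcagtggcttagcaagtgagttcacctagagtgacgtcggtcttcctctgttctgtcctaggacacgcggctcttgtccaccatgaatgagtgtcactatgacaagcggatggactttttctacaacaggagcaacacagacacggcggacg
Chrne: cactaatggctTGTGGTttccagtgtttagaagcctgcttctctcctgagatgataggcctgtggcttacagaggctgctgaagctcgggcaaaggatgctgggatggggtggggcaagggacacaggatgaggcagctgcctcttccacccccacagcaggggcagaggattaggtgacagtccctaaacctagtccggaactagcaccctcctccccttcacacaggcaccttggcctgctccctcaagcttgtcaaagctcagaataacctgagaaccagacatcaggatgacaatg
Chrne held 1 match, which starts at base 12 of the stretch. Gzmbl3, Dapk2 and Lpar3 held none, which says only that these letters are not in these windows. Over all 33469 RefSeq stretches of 300 bases, 17.3% held a match. Among the 1145 stretches of genes that were higher in members 11.9% held one, among the 1420 of genes that were lower 14.4% did, and among the 9571 of all tested genes 12.2% did.

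Gzmbl3 was the gene that most members shared. It had a median of 279 CPM per member (0 to 1621), and 97.8% of members had at least 1 UMI of it, against a median of 3.50 CPM and 57.3% of the other kept cells. With all batches pooled, members had a median of 267274 UMIs per cell against 170444, though the difference within batches, given below, did not pass. After each cell was thinned to 20000 UMIs the shares with a UMI of Gzmbl3 were 88.2% and 18.2%. Dapk2 had a median of 48.6 CPM in members and 0 in the others, and 55.1% and 10.4% of thinned cells had a UMI. Lpar3 had a median of 25.9 CPM in members and 0 in the others, and 41.2% and 10.1% of thinned cells had a UMI. Crct1 had a median of 0 in both and a UMI in 26.5% of thinned members and 5.91% of the other thinned cells. All 4 genes chose the members, so these values describe them and carry no test. Gzmbl3 shares much of its sequence with the other granzyme B-like genes, and the sources used here do not say how reads were divided among such copies.

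**Figure D1:**
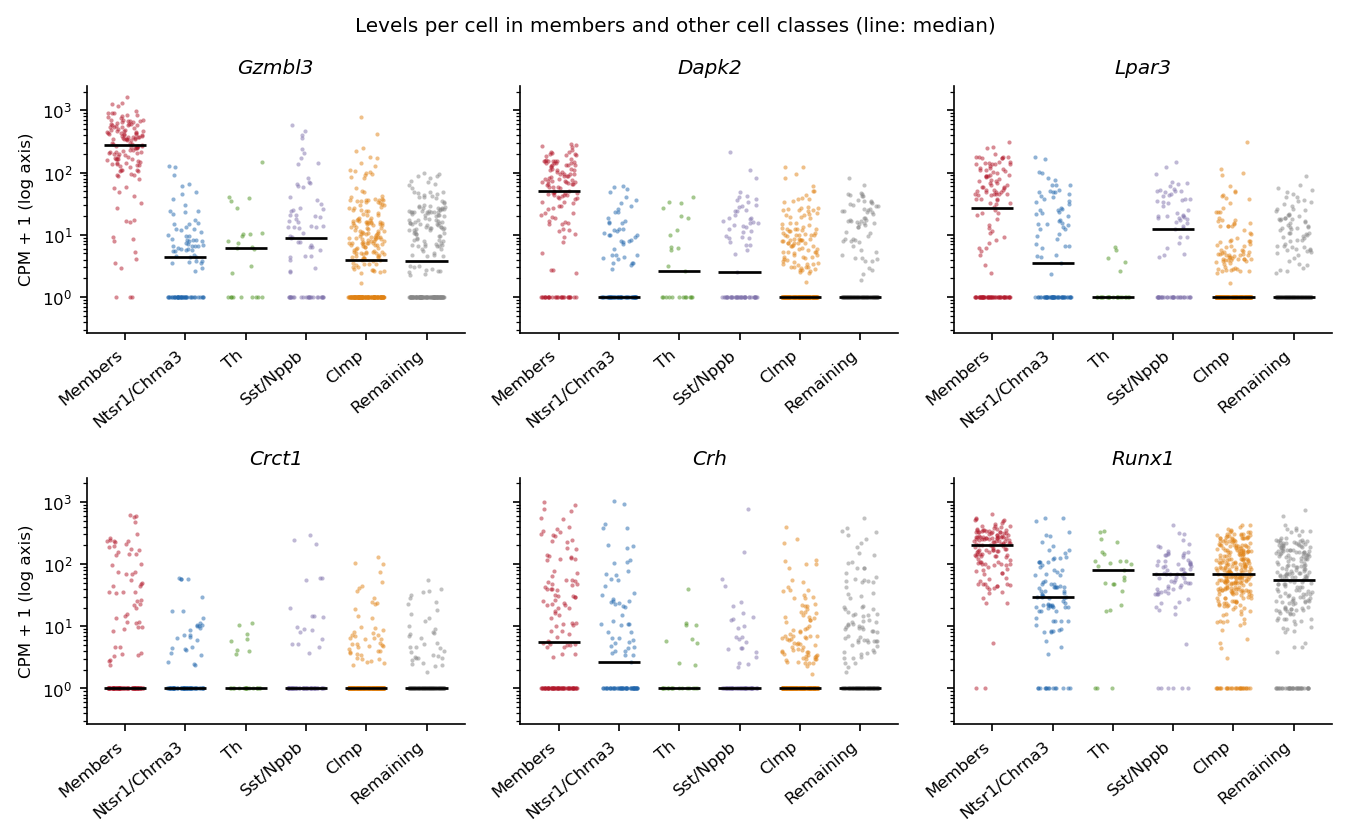
Level per cell (CPM + 1, log axis) of the 4 genes that chose the members, of Crh and of Runx1. Each point is 1 cell, columns are the members and the other classes, and the black line is the median. Gzmbl3 lies high in nearly all members while Crct1 is spread from 0 upward, and Runx1, which the choice did not use, has a median of 205 CPM in members and 57.3 CPM over all other cells.

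Members differed among themselves in which of the 4 genes they carried. With 20 CPM as the level that counts as carried, 34 members carried 1 of the 4 genes, 38 carried 2, 42 carried 3 and 22 carried 4. The most frequent combination was Gzmbl3 with Dapk2 and Lpar3, in 35 members, followed by Gzmbl3 alone in 27 and Gzmbl3 with Dapk2 in 24. Gzmbl3 was the highest of the 4 in 108 members, Crct1 in 13, Lpar3 in 8 and Dapk2 in 7. Across the 136 cells Dapk2 and Lpar3 varied together most closely (Spearman's rho 0.521), Gzmbl3 followed Dapk2 weakly (0.183), and Gzmbl3 and Crct1 had a rho of -0.0681. The cells were chosen by the sum of these 4 genes, which by itself can lower the correlations among them. These values describe cells that share libraries and differ in depth.

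The genes were also examined with each left out of the sum in turn. Without Gzmbl3 the other 3 genes chose 78 cells, whose Gzmbl3 had a median of 315 CPM against 4.82 CPM in the cells not chosen, and 85.9% and 25.1% had at least 20 CPM of it. Without Dapk2, 129 cells were chosen, with a median Dapk2 of 46.9 CPM against 0. Without Lpar3, 129 cells were chosen, with a median Lpar3 of 19.9 CPM against 0. Without Crct1, 130 cells were chosen, with a median Crct1 of 0 on both sides.

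Crh, the gene of corticotropin-releasing hormone, was named with the group but was not part of the choice. It was uneven within the members: the median was 4.51 CPM, the highest cell had 986 CPM, and 25 of 136 members had over 100 CPM. In batch sums it had a lowest, median and highest value of 3.24, 59.4 and 303 CPM in members, against 0.821, 8.02 and 64.7 CPM in all other cells of the same batches. By class its mean was 80.3 ± 78.2 CPM in members (SD, n = 15 batches), 33.0 CPM in Ntsr1/Chrna3 cells, 21.4 CPM in the cells left after all classes, 12.7 CPM in Sst/Nppb cells, 6.06 CPM in Clmp cells and 2.35 CPM in Th cells. The SD in members is nearly as large as their mean, and the difference from Ntsr1/Chrna3 cells, the next in order, was not tested. Within members Crh varied with Lpar3 (rho 0.389) more closely than with Gzmbl3 (rho 0.202). Its receptors Crhr1 and Crhr2 were at 0 CPM in all 15 member sums and at 0.0571 and 0.0518 CPM on average in the other cells.

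Every one of the 16 batches held members. They made up 5.56% of kept cells in the lowest batch, 16.5% in the median batch and 27.5% in the highest, with a mean of 16.8% ± 6.84 (SD, n = 16). Comparisons summed the UMIs of a class within a batch where it had at least 3 cells, which left out batch 28-1 with its 2 members. The files of single batches summed to between 3812280 and 26065847 UMIs. Over the 15 batches the median member had 0.27 more log2 UMIs than the median other cell (higher in 12, adjusted p = 0.115) and 500 more detected genes (9012 against 8513, higher in 12, adjusted p = 0.0476), by exact two-sided sign-flip permutation tests adjusted over 3 measures. The difference in depth passed without batch 35 (0.38 log2 UMIs, adjusted p = 0.00647) and was 0.12 with a threshold of 50 CPM on the 4 genes. The difference in detected genes lost its call when the threshold on the 4 genes was moved and when most single batches were left out. The share of UMIs from mitochondrial genes was 0.752% in members and 0.932% in the other cells (a difference of -0.18 points, higher in 1 of 15 batches, adjusted p = 0.00146).

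Peptidergic markers were low in members, and non-peptidergic markers were higher for some genes only. Of the listed non-peptidergic nociceptor markers 7 of 14 tested were higher in members and 1 was lower, with a median log2 fold change of 0.34, while 9 of 11 tested peptidergic markers were lower and 0 higher, with a median of -2.27. Over all 11485 genes tested, 3134 passed the threshold, which is 27.3% (12.1% higher and 15.2% lower), and the median log2 fold change was -0.04. These shares are the background for every later list count against all other cells, unless another setting is named. The summed level of the peptidergic markers ran from 690 to 1473 CPM in members, against 2130 to 3777 CPM in the other cells, with no overlap. The summed level of the non-peptidergic markers ran from 2535 to 3518 CPM in members and from 2529 to 3591 CPM in the others, with overlap throughout. Mrgprd, the itch and pain receptor that defines the best known non-peptidergic class, was nearly absent: 3 of 136 members had a UMI of it (2.21%, exact 95% interval 0.457 to 6.31), against 0.432% of the other cells (exact 95% interval 0.0892 to 1.26). Lpar5, another receptor for lysophosphatidic acid, had a UMI in 4.41% of members and 1.44% of the others. Exact intervals cover counting error only.

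Transcripts of other cell types were measured beside these. The summed level of 5 core glial genes ran from 33.2 to 185 CPM in members, with a median of 79.6, against 81.4 to 245 CPM with a median of 147 in the other cells, and it was higher in members in 3 of 15 batches. The summed level of 8 vessel markers had a median of 87.1 CPM in members (21.6 to 206) and 27.4 CPM in the others (16.9 to 71.6), while the endothelial genes Cldn5 and Kdr were at 0 in every member sum. Its member Cdh5, a cadherin of endothelial junctions, averaged 55.6 ± 31.7 CPM in members and 13.7 ± 10.1 CPM in the others (SD, n = 15). Of 9 immune cell markers, Ptprc and Cd3e were at 0 in every member sum, and the sum had a median of 14.4 CPM in members and 29.6 CPM in the others. The part of glial transcripts in the results was not tested beyond leaving out cells rich in them.

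Runx1 had no part in choosing the members and was higher in them in every batch. Its batch sums had a lowest, median and highest value of 160, 214 and 285 CPM in members, against 57.7, 97.4 and 132 CPM in all other cells. All 15 member sums lay above all 15 sums of other cells. The log2 fold change was 1.22 ± 0.08 (SE), with an adjusted p of 4.72e-10 by edgeR's quasi-likelihood test with batch as a term and Benjamini-Hochberg adjustment, which is the test behind every adjusted p on a gene that follows. By class its mean was 217 ± 44.9 CPM in members and, in falling order, 110 ± 63.2 in Sst/Nppb cells, 105 ± 38.3 in Th cells, 99.7 ± 37.2 in Clmp cells, 94.4 ± 28.7 in the remaining cells and 59.4 ± 33.0 in Ntsr1/Chrna3 cells. From Sst/Nppb cells down to the remaining cells each mean lies within 1 SD of the next.

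Among the receptors for growth factors, the coreceptor of the GDNF family Gfra2, which binds neurturin, stood at 3.74, 50.6 and 129 CPM (lowest, median, highest) in members and 4.56, 9.37 and 27.5 CPM in the others. It rose by a log2 fold change of 2.2 ± 0.32 (adjusted p = 2.78e-05) and was higher in 14 of 15 batches, though the sums overlap. Ret, the signalling receptor that pairs with it, averaged 182 ± 61.2 CPM in members and 146 ± 35.0 CPM in the others and missed the threshold (log2 fold change 0.29 ± 0.12, adjusted p = 0.0683), which it passed in DESeq2 (0.30, adjusted p = 0.0366) and limma voom (0.33, adjusted p = 0.0182). Ngfr, the low-affinity neurotrophin receptor, fell (log2 fold change -1.25 ± 0.19, adjusted p = 3e-05). Over the whole list of GDNF-family and neurotrophin receptors 3 of 14 tested genes were higher and 5 lower.

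The peptide genes were low in members. Calca stood at 174, 340 and 626 CPM (lowest, median, highest) in members against 856, 1082 and 1579 CPM in the other cells. No member sum reached the lowest sum of the others, and the log2 fold change was -1.70 ± 0.10 (adjusted p = 3.36e-11). Tac1 averaged 78.7 ± 63.6 CPM in members and 311 ± 116 CPM in the others (log2 fold change -2.25 ± 0.23), and Adcyap1, the gene of the peptide PACAP, averaged 105 ± 82.9 and 416 ± 133 CPM (-2.27 ± 0.20). Scg2, a granin of dense-core vesicles, averaged 87.3 ± 56.2 CPM in members and 319 ± 78.3 CPM in the others (-2.05 ± 0.19). In the list of neuropeptides and granins 17 of 28 tested genes were lower and 2 higher. The larger of the 2 was Trh, the gene of thyrotropin-releasing hormone, at 6.30, 298 and 590 CPM in members against 3.03, 111 and 205 CPM in the others. It rose by 1.35 ± 0.18 (adjusted p = 7.46e-06) and was higher in 14 of 15 batches. Gal, the gene of galanin, averaged 1168 ± 389 CPM in members and 1503 ± 479 CPM in the others (-0.39 ± 0.11, adjusted p = 0.00769), and its call was lost without the batch term (-0.37, adjusted p = 0.134).

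The rule that chose members removed cells with Clmp, and Clmp cells held the most Calca of any class (1664 CPM on average), so the same values were computed against the other cells with under 30 CPM of Clmp, an alternative chosen after the data had been seen. There Runx1 had a log2 fold change of 1.31, Gfra2 of 1.81, Calca of -1.21 and Tac1 of -1.85, and all 4 still passed. Of 111 genes examined in this way 10 no longer passed, among them Gal (-0.26, adjusted p = 0.0949) and, from the groups that follow, P2rx3, Piezo2, Kcnk2, Atf3, Anxa1 and Syp. Of the peptidergic markers 9 of 11 were still lower, with a median of -1.54. Of the non-peptidergic markers 4 of 15 were then higher and 2 lower, with a median of 0.12. Over all 11109 genes tested in this setting 19.3% passed, 990 higher and 1152 lower, with a median of -0.03.

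**Figure D2:**
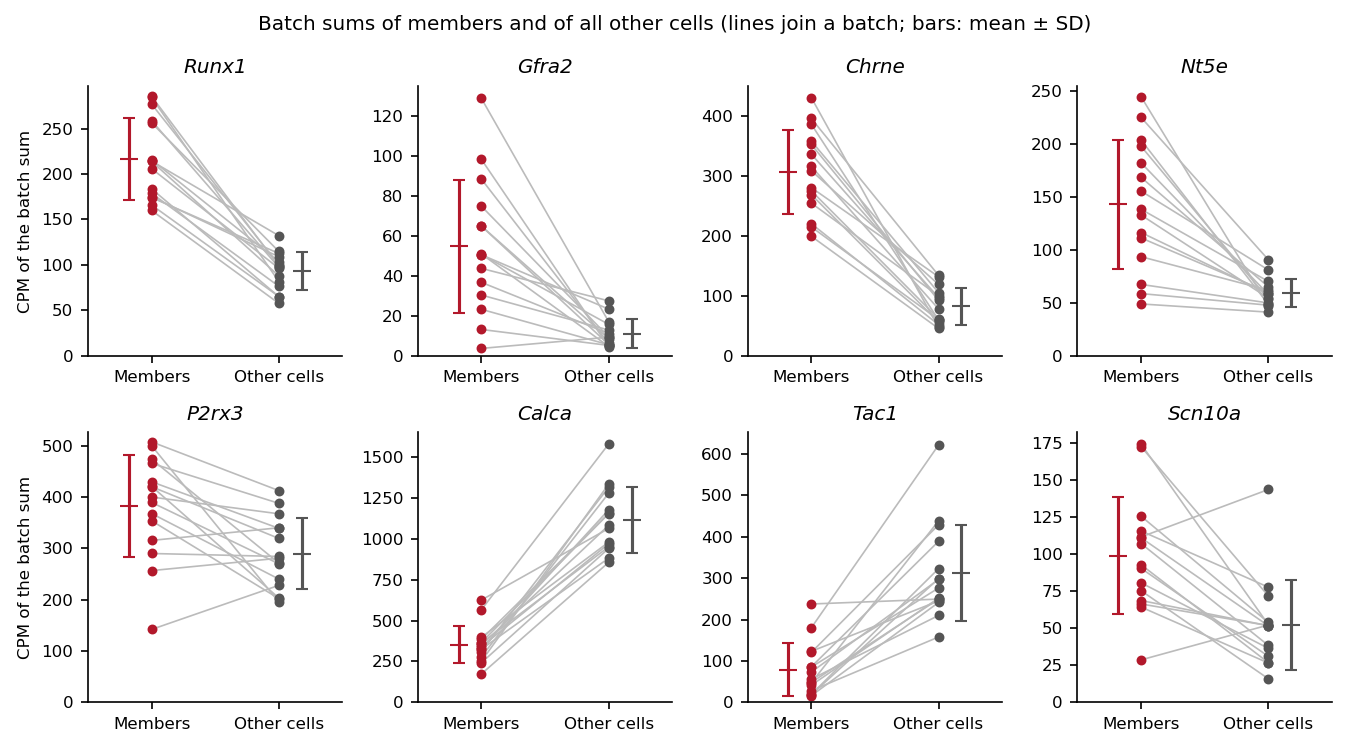
Batch sums (CPM) of 8 genes in members and in all other cells of the same batch. Lines join a batch, bars give the mean and SD over 15 batches, and members stand on the left of each panel. Runx1, Chrne and Calca do not overlap between the 2 sides, while P2rx3 does for most batches.

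Of the purinergic receptors and ectonucleotidases, which act on ATP and adenosine, 5 of 14 tested genes were higher in members and 3 lower. Nt5e, the enzyme CD73 that makes adenosine from AMP, stood at 49.0, 138 and 244 CPM (lowest, median, highest) in members against 41.3, 58.0 and 90.6 CPM in the other cells. It rose by 1.16 ± 0.14 (adjusted p = 3.42e-06) in all 15 batches, with overlapping ranges. Acpp, the acid phosphatase long used to stain non-peptidergic neurons, averaged 329 ± 53.6 CPM in members and 194 ± 44.3 CPM in the others (0.77 ± 0.08, adjusted p = 2.14e-07, higher in 15 of 15). Adora2a, an adenosine receptor, stood at 18.9, 45.8 and 93.3 CPM (lowest, median, highest) in members and 16.2, 26.8 and 58.6 CPM in the others (0.77 ± 0.17, adjusted p = 0.00143). P2rx3 averaged 382 ± 99.3 CPM in members and 290 ± 69.6 CPM in the others and passed narrowly (0.37 ± 0.11, adjusted p = 0.0135, higher in 12 of 15). Against other cells with at least 100 CPM of P2rx3, also chosen after the data had been seen, its difference was 0.11 (adjusted p = 0.451), and against those with little Clmp it was 0.12 (adjusted p = 0.488). In the annotation of GRCr8 Nt5e overlaps Snx14 and P2rx3 overlaps Ssrp1, and the sources used here do not say whether reads were counted by strand, so reads of such neighbours cannot be told apart. The same holds for Plpp1, Atf3, Ina, Rhoa, Slc1a1, Glul, Cox8a, Fermt2, Gsg1 and Nostrin, which are named in later comparisons and also overlap other genes there.

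Of the channels, Scn10a, the pain neuron sodium channel Nav1.8, stood at 28.7, 92.9 and 174 CPM (lowest, median, highest) in members and 15.9, 51.8 and 144 CPM in the others. It rose by 1.00 ± 0.19 (adjusted p = 0.000342) and was higher in 13 of 15 batches. Scn11a, the related channel Nav1.9, averaged 37.5 ± 32.1 CPM in members and 29.3 ± 27.1 CPM in the others (0.23 ± 0.20, adjusted p = 0.418), and its sign changed against cells with little Clmp (-0.09, adjusted p = 0.791). The acid-sensing channel gene Asic3 had the largest drop of the channels named, with 4.32, 17.6 and 63.5 CPM in members against 10.2, 147 and 282 CPM in the others (-3.02 ± 0.20, adjusted p = 4.72e-10, lower in all 15 batches). Among the mechanical and heat channels, Trpv2 averaged 179 ± 28.4 CPM in members and 137 ± 19.5 CPM in the others (0.38 ± 0.07, adjusted p = 0.000397). Piezo2, the main touch channel, passed against all others (0.37 ± 0.12, adjusted p = 0.0287) and not against cells with little Clmp (0.02, adjusted p = 0.935), nor without any one of batches 20, 22, 30, 32, 33 and 35 (0.30 at the least). Trpv1, the capsaicin receptor, had 7.42 ± 11.3 CPM in members and 10.5 ± 11.2 CPM in the others (-0.87 ± 0.35, adjusted p = 0.0663, but 0.02 in DESeq2 and 0.0441 in limma voom), and 29.4% of members and 32.1% of other cells had a UMI of it. Trpa1, the irritant receptor, had 5.08 ± 5.13 and 8.36 ± 5.09 CPM (-0.97 ± 0.44, adjusted p = 0.101, but 0.0217 in DESeq2).

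Of the potassium channel genes 8 of 41 tested were higher and 9 lower, with a median log2 fold change of -0.0059. Over all genes tested 12.1% were higher and 15.2% lower, so the list shows no clear direction of its own. Kcnd3, a subunit of the fast A-type current, averaged 95.1 ± 28.7 CPM in members and 49.1 ± 13 CPM in the others (0.93 ± 0.12, higher in 14 of 15), and Kcnip1, a calcium-binding partner of that channel family, averaged 184 ± 74.0 and 87.7 ± 22.4 CPM (0.99 ± 0.15, higher in 14 of 15). Kcna3 rose by 1.67 ± 0.29 and Kcnk2, the leak channel TREK-1, fell by 2.47 ± 0.57 on the log2 scale. Against cells with little Clmp Kcnk2 did not pass (-1.57, adjusted p = 0.115). Among the listed calcium channel genes 3 of 19 were higher and 6 lower, among the lower ones Cacna2d1, the gabapentin-binding subunit (-0.49 ± 0.06, lower in all 15 batches). Of the sodium channel list, which also holds sodium pump subunits, 5 of 23 were higher and 6 lower. The pump subunit gene Atp1b1 averaged 25.8 ± 23.2 CPM in members and 149 ± 59.1 CPM in the others (-2.78 ± 0.27, adjusted p = 1.73e-07). Kcnip1 overlaps Kcnmb1 and Atp1b1 overlaps Nme7 in the annotation.

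Lysophosphatidic acid receptors other than Lpar3 were scarce in members. Lpar1 averaged 1.59 ± 1.82 CPM in members and 11.7 ± 4.36 CPM in the others and fell (-3.04 ± 0.45, adjusted p = 3.07e-05, higher in 1 of 15 batches). Lpar2 was at 0 in both, and Lpar4, Lpar5 and Lpar6 averaged 0.0149, 0.322 and 0.946 CPM in members and 0.206, 0.135 and 1.51 CPM in the others, too low to be tested. Plpp1, a phosphatase that breaks lysophosphatidic acid down, rose (200 ± 46.6 against 156 ± 18.2 CPM, 0.32 ± 0.08, adjusted p = 0.00617), but did not pass with a threshold of 200 CPM on the 4 choosing genes (0.23, adjusted p = 0.0623). Over the list of lysophospholipid receptors and enzymes 1 of 10 tested genes was higher and 2 lower. Of the Mas-related receptors only Mrgpre and Mrgprx3 could be tested and neither passed. Mrgprx3 averaged 11.1 ± 19.9 CPM in members and 3.98 ± 5.67 CPM in the others (1.16 ± 0.44, adjusted p = 0.0555). Other receptors that passed were F2rl1, the protease-activated receptor PAR2 (27.2 ± 18.6 CPM in members and 8.55 ± 3.08 CPM in the others, 1.46 ± 0.29), Ptger2, a prostaglandin E2 receptor (15.4 ± 12.0 and 3.20 ± 2.82 CPM, 2.12 ± 0.40), Galr1, a galanin receptor (1.77 ± 2.60 and 12.2 ± 6.76 CPM, -3.01 ± 0.41), and Cckbr, a cholecystokinin receptor (9.07 ± 13.3 and 36.1 ± 13 CPM, -2.60 ± 0.37).

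The genes named for the largest rises, with at least 20 CPM in members, were of different kinds. Cdh1, the gene of E-cadherin, stood at 3.52, 42.3 and 74.6 CPM (lowest, median, highest) in members against 0.104, 3.47 and 10.5 CPM in the other cells. It rose by 3.32 ± 0.49 (adjusted p = 3.02e-05) in all 15 batches, with overlapping ranges. Nlrp5, a member of the NLR family best known from the egg, had 6.31, 16.4 and 158 CPM against 0.178, 2.35 and 5.34 CPM, without overlap (3.30 ± 0.36, adjusted p = 7.54e-07). Ggt1, which breaks down glutathione outside the cell, had 9.72, 85.8 and 239 CPM against 2.27, 8.18 and 31.1 CPM (2.71 ± 0.35, adjusted p = 6.16e-06, higher in 15 of 15). Further large rises on the log2 scale were Ahsp (2.61), Upb1 (2.51), C5ar2, a complement C5a receptor (2.50), and Pik3c2g (2.45). Foxc2, a forkhead factor (2.40), Spon1, the matrix protein F-spondin (2.26), Ston2 (2.11) and Cdh5 (2.04 ± 0.33) also rose. Ahsp is annotated beside Rusf1 and Ggt1 beside Lrrc75b with overlap in GRCr8, so their reads may be shared.

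The genes named for the largest drops, with at least 20 CPM in the other cells, began with Gda, guanine deaminase, with 3.06 ± 4.26 CPM in members and 37.4 ± 17.9 CPM in the others (-4.08 ± 0.43, adjusted p = 4.22e-07), and Lamp5, a membrane protein of some neurons, with 1.79 ± 2.21 and 24.3 ± 19.8 CPM (-3.95 ± 0.38). Kit, the stem cell factor receptor, stood at 0, 6.58 and 19.2 CPM (lowest, median, highest) in members against 0.464, 83.3 and 147 CPM in the others (-3.67 ± 0.20, adjusted p = 1.98e-11). Against cells with little Clmp Kit had a log2 fold change of -1.54 (adjusted p = 0.00048), and by class it averaged 181 CPM in Clmp cells and 18 CPM in the remaining cells. Further large drops were Ramp3, a coreceptor of calcitonin-family receptors (-3.60), Masp1 (-3.45), Ccn3 (-3.38), Fcgrt (-3.33), Mgst1 (-3.22) and Nudt7 (-3.20). Alkal2, a ligand of the receptor kinase ALK (-3.15), and Csf1, the macrophage growth factor (-3.06), also fell. Lmo2, whose sums in members and other cells did not overlap, had a log2 fold change of -3.68. Masp1 overlaps Rtp4 in the annotation.

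Members and other cells did not overlap over the 15 batches for 29 genes, 0.253% of those tested, of which 14 were higher and 15 lower in members. Besides Runx1, Nlrp5 and Calca, the following were picked from the 29 after their values had been seen. Chrne stood at 199, 308 and 430 CPM (lowest, median, highest) in members against 45.7, 78.2 and 134 CPM in the others (1.93 ± 0.12, adjusted p = 1.98e-10). It overlaps C10h17orf107 and Gp1ba in the annotation, so its reads may be shared, as may those of Cflar, which overlaps Casp8. Slc2a1, the glucose transporter GLUT1, stood at 264, 333 and 450 CPM against 90.9, 173 and 215 CPM (1.03 ± 0.07, adjusted p = 2.68e-10), and Hif1a, the oxygen-sensitive factor known to act on that gene, at 292, 364 and 444 CPM against 149, 204 and 262 CPM (0.82 ± 0.06, adjusted p = 1.76e-09). Cflar, an inhibitor of caspase-8, averaged 116 ± 58.8 CPM in members and 35.3 ± 11.3 CPM in the others (1.64 ± 0.12), the cadherin Cdh11 91.9 ± 34.9 and 25.4 ± 11 CPM (1.87 ± 0.16), Fermt2, an integrin activator, 433 ± 67.1 and 233 ± 34.7 CPM (0.89 ± 0.07), and Gpx2, a glutathione peroxidase, 747 ± 85.6 and 438 ± 70.3 CPM (0.77 ± 0.07). On the lower side Gstm7, a glutathione transferase, averaged 13.1 ± 5.13 CPM in members and 83.8 ± 22.2 CPM in the others (-2.72 ± 0.15), Srgap1, a Slit-Robo partner, 54.8 ± 23.6 and 166 ± 16.4 CPM (-1.68 ± 0.15), and Ndn, necdin, 386 ± 45.7 and 555 ± 54.5 CPM (-0.53 ± 0.05). Against the cells with little Clmp all 29 passed in the same direction, and of the 25 that could be tested in thinned cells all 25 did. Both checks reuse the cells whose sums picked the 29, so passing was likely beforehand and is no independent support.

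Of the epithelial genes 10 of 25 tested were higher and 4 lower, with a median log2 fold change of 0.46. Beside Cdh1 they included Dsc2, a desmosomal cadherin (52.7 ± 21.7 CPM in members and 20.5 ± 8.88 CPM in the others, 1.38 ± 0.16, higher in 15 of 15), Epcam, an epithelial adhesion molecule (109 ± 40.4 and 46.3 ± 23.5 CPM, 1.31 ± 0.24), and Cldn1, a tight junction protein (17.3 ± 16.6 and 4.62 ± 5.96 CPM, 1.78 ± 0.45). Cldn3 (-1.95 ± 0.44) and the keratin Krt7 (-0.53 ± 0.12) fell, and Krt7 lost its call without the batch term (-0.47, adjusted p = 0.0928). Ivl, the involucrin gene, was at 0 in every sum of both sides, and Krt14 and Krt18 were at 0 in every member sum.

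Immune-type genes, among which Gzmbl3 would be counted by its name, had 12 of 44 tested higher and 9 lower. Gzmbl1, a near copy of Gzmbl3, had 1.3, 12.4 and 34.4 CPM (lowest, median, highest) in members against 0, 1.64 and 19.4 CPM in the others (3.44 ± 0.56, adjusted p = 9.13e-05). Gzmbl2 averaged 232 ± 139 CPM in members and 144 ± 66.6 CPM in the others and missed the threshold (0.63 ± 0.25, adjusted p = 0.0622). It passed against cells with little Clmp (1.40, adjusted p = 0.00224), against those with at least 100 CPM of P2rx3 (0.77, adjusted p = 0.019) and in limma voom (0.74, adjusted p = 0.002). Gzmb itself averaged 33.0 ± 42.1 CPM in members and 1.29 ± 1.24 CPM in the others and was higher in 13 of 15 batches, but it did not pass the filter on low counts and was not tested. Reads of such near copies may have been split between them, so these values are uncertain. Ctla2a, a cathepsin inhibitor with near copies of its own, rose by 1.55 ± 0.24, and the class I gene RT1-A2 rose by 0.53 ± 0.06. The interferon-induced Ifitm3, one of a family of close copies, averaged 3.86 ± 3.68 CPM in members and 24.7 ± 15.5 CPM in the others (-2.84 ± 0.38).

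Kinases and calcium signalling genes were listed because Dapk2 is a calmodulin-dependent kinase, and 13 of 44 tested were higher and 10 lower. Camk4, a nuclear kinase of the same broad family, averaged 102 ± 48.3 CPM in members and 41.5 ± 17.8 CPM in the others (1.25 ± 0.17, higher in 13 of 15). Rasgrp1, an activator of Ras that responds to diacylglycerol, rose by 1.86 ± 0.33 in 15 of 15 batches, and the kinase Prkd1 rose by 1.12 ± 0.23. Adcy2, an adenylyl cyclase, fell by 2.52 ± 0.32 on the log2 scale. Of the transcription factors of sensory subtypes 5 of 44 were higher and 9 lower. After Runx1 they included Pou4f2 (25.2 ± 13.2 CPM in members and 10.4 ± 5.04 CPM in the others, 1.24 ± 0.31) and Klf5 (54.8 ± 41.0 and 27.6 ± 11.2 CPM, 0.85 ± 0.15), and its relative Pou4f3 fell (13.5 ± 7.47 and 44.5 ± 12.1 CPM, -1.85 ± 0.20).

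The study asks about axonal growth, and most of the listed growth genes did not pass in either direction. Over all genes tested 12.1% were higher and 15.2% lower. The growth cone list and the regeneration list each had a larger share lower than that. In the growth cone and cytoskeleton list 16 of 44 tested genes were lower and 2 higher, with a median log2 fold change of -0.11. Gap43, the growth cone protein, stood at 958, 1316 and 1570 CPM (lowest, median, highest) in members against 1439, 1545 and 1941 CPM in the others (-0.31 ± 0.05, adjusted p = 2.57e-05, lower in all 15 batches, with overlapping ranges). Nefh, the heavy neurofilament, averaged 170 ± 78.1 and 267 ± 50.2 CPM (-0.73 ± 0.12), and Ina, internexin, rose (474 ± 87.8 and 346 ± 75 CPM, 0.46 ± 0.08). Of the regeneration-associated genes 14 of 40 were lower and 5 higher, with a median of -0.0078. Atf3, the injury-induced factor, averaged 608 ± 100 CPM in members and 698 ± 71.1 CPM in the others (-0.21 ± 0.06, adjusted p = 0.014), and Sprr1a averaged 384 ± 139 and 470 ± 105 CPM (-0.34 ± 0.10, adjusted p = 0.0134). Neither passed with a threshold of 200 CPM on the 4 choosing genes (Atf3 -0.14, adjusted p = 0.171, Sprr1a -0.19, adjusted p = 0.301), and Atf3 did not pass against cells with little Clmp (-0.15, adjusted p = 0.145). Jun (0.08 ± 0.06, adjusted p = 0.351) and Sox11 (0.30 ± 0.11, adjusted p = 0.0542) missed the threshold, which Sox11 passed in DESeq2 (0.31, adjusted p = 0.0251). Anxa1, an annexin, rose (717 ± 240 and 465 ± 139 CPM, 0.58 ± 0.13, adjusted p = 0.00201), but its difference was 0.05 against cells with little Clmp (adjusted p = 0.803). Among the listed growth brakes 5 of 32 were higher, among them Rhoa (318 ± 40.5 and 240 ± 13.9 CPM, 0.39 ± 0.05) and Psd3 (62.0 ± 21.1 and 33.6 ± 7.07 CPM, 0.84 ± 0.12), and 4 lower.

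Axon guidance and adhesion genes had 8 of 52 tested higher and 10 lower, near the 12.1% and 15.2% over all genes tested. Chl1, a neural adhesion molecule of the L1 family, stood at 7.76, 49.7 and 125 CPM (lowest, median, highest) in members against 51.0, 287 and 355 CPM in the others (-2.60 ± 0.18, adjusted p = 5.45e-10). All 15 batches had less of it in members, though the ranges overlap. Plxnc1, a semaphorin receptor known from non-peptidergic neurons, averaged 74.1 ± 27.9 CPM in members and 32.7 ± 13 CPM in the others (1.19 ± 0.18, adjusted p = 4.36e-05), Plxna1 35.7 ± 8.76 and 18.2 ± 5.73 CPM (0.98 ± 0.15), and the ephrin Efnb1 16.6 ± 10.1 and 4.72 ± 2.82 CPM (1.81 ± 0.27).

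Synaptic vesicle genes were lower in 16 of 35 tested cases and higher in 4, with a median of -0.25. Slc1a1, a neuronal glutamate transporter, averaged 6.82 ± 7.08 CPM in members and 31.1 ± 10.5 CPM in the others (-2.47 ± 0.28), and Syp, synaptophysin, 7.27 ± 3.33 and 12.4 ± 3.77 CPM (-0.83 ± 0.19). Against cells with little Clmp Syp did not pass (-0.53, adjusted p = 0.0862). The 3 named rises were Sv2c (84.2 ± 23.3 and 45.0 ± 7.75 CPM, 0.87 ± 0.11), Glul, glutamine synthetase (283 ± 51.5 and 172 ± 22.7 CPM, 0.70 ± 0.07), and Synpr, synaptoporin (154 ± 45.3 and 94.6 ± 13.4 CPM, 0.65 ± 0.10). Genes of oxidative phosphorylation had 17 of 35 lower and 0 higher, with a median of -0.15, and Cox6a1 (858 ± 57.3 CPM in members and 1042 ± 126 CPM in the others, -0.28 ± 0.05) and Cox8a (-0.29 ± 0.06) were among them. In the members that reached the threshold only with Gzmbl3, an alternative chosen after the data had been seen, 0 genes of oxidative phosphorylation passed in either direction, and 2 genes rose and 3 fell among growth cone genes and likewise among synaptic genes. Those counts rest on fewer cells and 12 batches. Over all 10793 genes tested in that setting 7.91% passed (308 higher and 546 lower), against 27.3% with all members, so fewer calls were found in general.

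**Figure D3:**
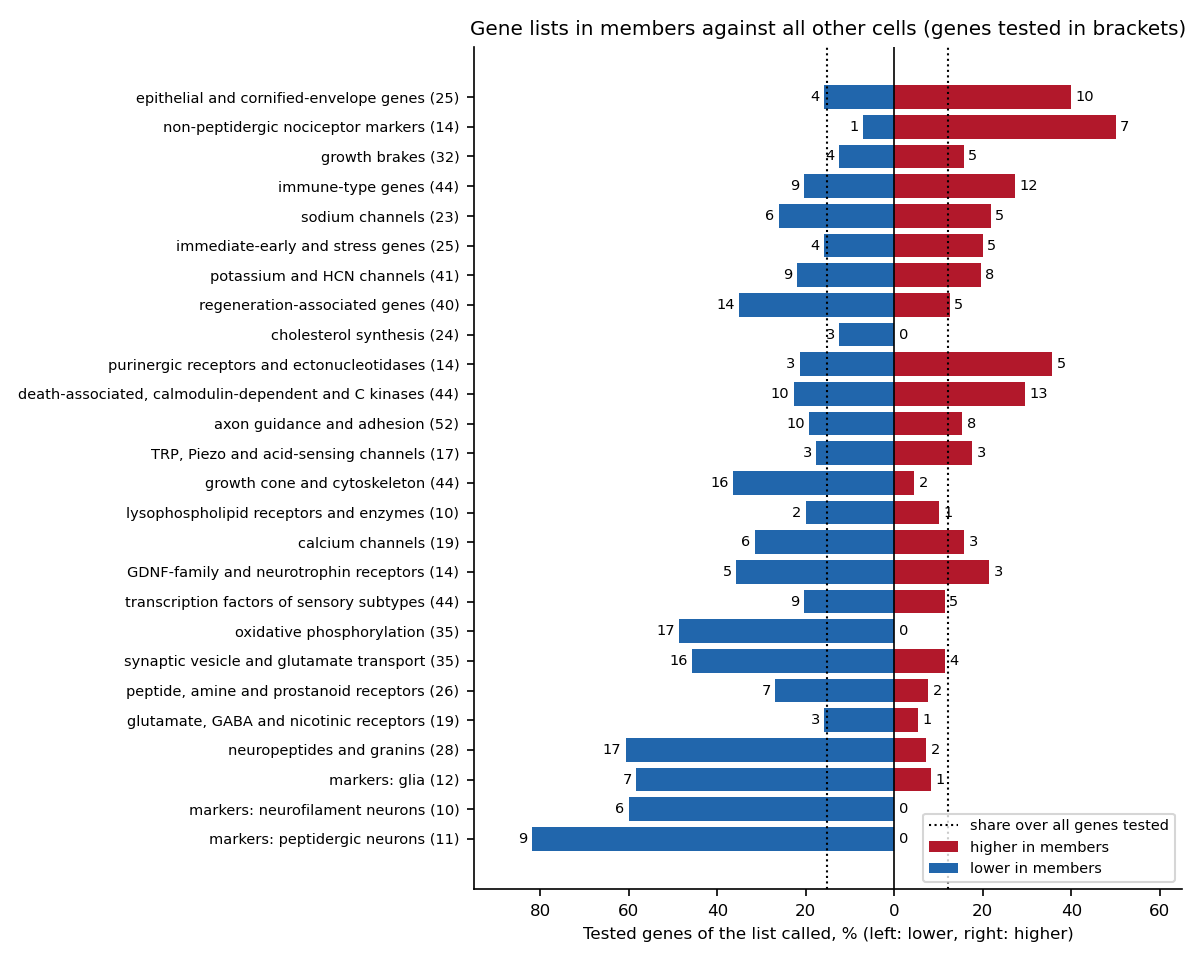
Share of each list's tested genes that passed an adjusted p of 0.05 in members against all other cells (x axis, percent, higher in members to the right in red and lower to the left in blue). Numbers at the bars are counts, numbers in brackets the genes tested, and dotted lines the 12.1% and 15.2% over all genes. Peptidergic markers, neuropeptides and oxidative phosphorylation lie almost wholly to the left, and non-peptidergic markers and epithelial genes mostly to the right.

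The nearest comparison is with the cells led by Ntsr1, a neurotensin receptor, and Chrna3, a nicotinic receptor subunit, since the choice of members set both genes against their own 4. In 14 batches 1397 of 9836 genes passed, which is 14.2% (751 or 7.64% higher in members and 646 or 6.57% lower). Several genes typical of non-peptidergic neurons did not pass. Ret averaged 185 ± 62.3 CPM in members and 184 ± 53.2 CPM in Ntsr1/Chrna3 cells (-0.02 ± 0.11, adjusted p = 0.934), P2rx3 380 ± 102 and 446 ± 99.4 CPM (-0.26 ± 0.15, adjusted p = 0.27), and Scn10a 99.6 ± 40.6 and 68.4 ± 48.0 CPM (0.78 ± 0.29, adjusted p = 0.0703, but 0.0457 in DESeq2). Of the listed non-peptidergic markers 2 of 13 tested were higher and 1 lower, and a miss of the threshold does not show equal levels.

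Runx1 did separate them, with 160, 210 and 285 CPM (lowest, median, highest) in members against 16.2, 46.2 and 135 CPM in Ntsr1/Chrna3 cells, no overlap and a log2 fold change of 2.08 ± 0.14 (adjusted p = 2.05e-09). Only 6 genes, 0.061% of those tested, did not overlap: Runx1, Chrne (2.90 ± 0.21), Cflar (1.80), Slc2a1 (1.18 ± 0.12), Gstm7 (-2.40) and Haus4 (-1.08), the last 5 named after their values had been seen. Gfra2 averaged 55.1 ± 34.5 CPM in members and 11 ± 11.5 CPM in Ntsr1/Chrna3 cells (2.52 ± 0.41, adjusted p = 0.00032). Calca was again lower, 359 ± 118 against 482 ± 133 CPM (-0.44 ± 0.13, adjusted p = 0.0219), a call lost without the batch term (adjusted p = 0.0644) and with a threshold of 50 CPM on the 4 choosing genes (-0.31, adjusted p = 0.173), and Tac1 missed the threshold (-0.62 ± 0.28, adjusted p = 0.148).

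The largest rises against Ntsr1/Chrna3 cells were Mmp12, a macrophage-type elastase, at 14.6, 88.6 and 441 CPM (lowest, median, highest) in members and 0, 6.71 and 68.3 CPM in Ntsr1/Chrna3 cells (3.67 ± 0.38), Gsg1 (3.67 ± 0.55), Spon1 (3.57 ± 0.45), Mmp9, a gelatinase (3.54 ± 0.66), Gzmbl2 (224 ± 141 and 34.5 ± 37.3 CPM, 3.11 ± 0.44) and Ahsp (3.08 ± 0.73). The largest drops were Nostrin, a regulator of nitric oxide synthase (2.64 ± 2.64 and 34.5 ± 25.8 CPM, -3.58 ± 0.49), Mgst1 (-3.57 ± 0.46), the adenosine receptor Adora2b (-3.44 ± 0.61), Arhgap36 (-3.42 ± 0.54), Cckbr (-2.80 ± 0.40) and Tor4a (-2.59 ± 0.44). Among neuropeptides 2 of 26 tested were higher, one of them Ucn, urocortin (369 ± 131 and 278 ± 130 CPM, 0.50 ± 0.14, not passing without the batch term at 0.42), and 6 lower, among them Scg2 (-1.31 ± 0.18), Cartpt (-1.66 ± 0.36) and Vip (365 ± 222 and 688 ± 319 CPM, -0.96 ± 0.27). Oxidative phosphorylation had 0 of 35 in either direction here, and the growth cone list 1 of 42 higher and 6 lower.

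Th cells carry tyrosine hydroxylase, the mark of touch-sensing C fibres. Only 5 batches held at least 3 of them, and 376 of 9245 genes passed, 4.07% (196 or 2.12% higher in members and 180 or 1.95% lower). Vip, the gene of vasoactive intestinal peptide, stood at 108, 170 and 487 CPM (lowest, median, highest) in members against 597, 1056 and 1433 CPM in Th cells (-2.32 ± 0.32, adjusted p = 0.00209), and Nts, neurotensin, at 6.02, 13.2 and 39.3 CPM against 69.1, 124 and 349 CPM (-3.39 ± 0.33, adjusted p = 0.000143). Neither overlapped, and 499 genes (5.4%) did not overlap in so few batches. Runx1 averaged 231 ± 39.9 CPM in members and 105 ± 38.3 CPM in Th cells (1.14 ± 0.22, adjusted p = 0.0126), Calca 307 ± 59.6 and 501 ± 115 CPM (-0.75 ± 0.14, adjusted p = 0.0105), Scg2 49.1 ± 17.4 and 121 ± 31.2 CPM (-1.37 ± 0.28), and P2rx3 339 ± 73.6 and 464 ± 77.6 CPM (-0.52 ± 0.12, adjusted p = 0.0267). The largest rises were Mmp14, a membrane matrix protease (32.6 ± 7.46 and 1.06 ± 1.06 CPM, 4.81 ± 0.67), Nlrp5 (4.71 ± 0.77), Slpi, a protease inhibitor (30.1 ± 16.9 and 1.36 ± 1.97 CPM, 4.54 ± 0.76), the calcium pump Atp2b2 (3.89 ± 0.44), Upb1 (3.71 ± 0.64) and Ahsp (3.54 ± 0.78). After Nts the largest drops were Lekr1 (-3.48 ± 0.89), Arhgap36 (-3.48 ± 0.72), Gabrb1, a GABA receptor subunit (-3.42 ± 0.78), Tpm2 (-3.24 ± 0.75) and Grxcr2 (-2.88 ± 0.39), with Cckbr at -2.83 ± 0.46. Some of these calls depended on the setting. In thinned cells Runx1 (0.96, adjusted p = 0.145), Calca (-0.52, adjusted p = 0.225) and P2rx3 (-0.23, adjusted p = 0.618) did not pass. With single batches left out 9 of the named genes lost their call at least once: Runx1 without batch 25 (1.06, adjusted p = 0.0567), Calca, Scg2, P2rx3 and Ahsp without batch 25 or 29, Lekr1 without 25, 29, 32 or 34, and Gabrb1, Arhgap36 and Tpm2 without 29 or 31. The count of 376 was 115 without batch 29, 145 without batch 31 and 196 without batch 25.

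Sst/Nppb cells, which use somatostatin and the natriuretic peptide of itch, were set against members in 9 batches, where 792 of 9621 genes passed, 8.23% (357 or 3.71% higher in members and 435 or 4.52% lower), and 94 (0.977%) did not overlap. Of the neuropeptides and granins 10 of 24 tested genes were lower in members and 0 higher. Ifitm1, an interferon-induced gene, stood at 6.46, 21.8 and 47.1 CPM (lowest, median, highest) in members against 492, 654 and 1085 CPM in Sst/Nppb cells (-5.04 ± 0.24, adjusted p = 5.48e-09), and it has close copies. Calca stood at 174, 328 and 626 CPM against 1044, 1460 and 2484 CPM (-2.32 ± 0.23, adjusted p = 1.57e-05). Neither overlapped. The other large drops were Lamp5 (-5.93 ± 0.61), the calcium buffer Calb2 (-5.36 ± 0.78), Ramp3 (-4.85 ± 0.27), Emp1 (-4.81 ± 0.55) and Cyba (-4.78 ± 0.69), and the largest rises were Scml4 (63.6 ± 49.7 and 2.94 ± 3.34 CPM, 4.25 ± 0.45), Myh14 (4.03 ± 0.59), Clrn1 (3.45 ± 0.63), Ggt1 (3.45 ± 0.48), Fgf10 (3.44 ± 0.74) and Nlrp1a (3.39 ± 0.59). Runx1 averaged 215 ± 44.2 CPM in members and 114 ± 66.0 CPM in Sst/Nppb cells (1.04 ± 0.25, adjusted p = 0.0156, higher in 8 of 9) and Chrne 295 ± 71.7 and 59.2 ± 45.4 CPM (2.53 ± 0.37, adjusted p = 0.000514). P2rx3 (-0.04 ± 0.11, adjusted p = 0.875) and Scn10a (-0.04 ± 0.22, adjusted p = 0.945) did not pass. The 4 comparisons share the members' sums, so their results are not independent of each other.

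**Figure D4:**
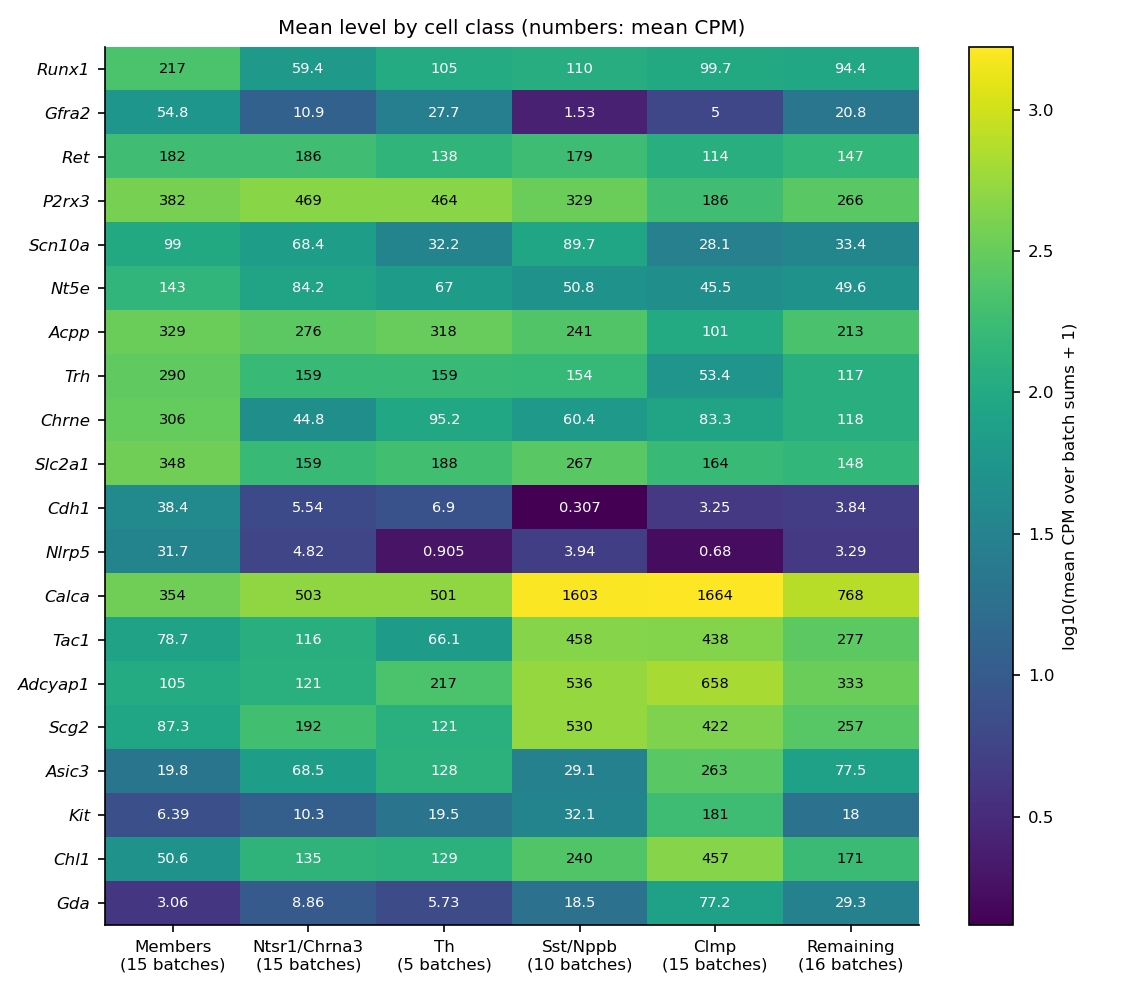
Mean CPM over batch sums of 20 genes (rows) in members and in 5 other classes (columns, with the number of batches in brackets). Colour gives log10 of the mean plus 1 and the numbers the mean. Members have the highest Runx1, Gfra2, Chrne, Slc2a1, Cdh1 and Nlrp5 and the lowest Calca, Adcyap1, Kit and Gda of the 6 classes, while P2rx3 is higher in Ntsr1/Chrna3 and Th cells.

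Which genes are distributed most like the 4 choosing genes was asked over 76 class sums and 6864 genes. The closest by Pearson's r with their mean log2 level were Pla2g12a, a secreted phospholipase (0.795, 180 CPM in members and 97.7 CPM in the next highest class), Hif1a (0.784), Hnrnpf, a splicing factor (0.754), Fermt2 (0.752), Get4 (0.730) and Cflar (0.727). The 4 genes also chose the members, so a high r can restate a difference between members and other cells. The sums share libraries as well, so these values are a description and carry no test.

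Within the members, 57 of the 136 reached 100 CPM only through Gzmbl3, and the other 79 reached it also without that gene. The 2 subsets were compared as a description in the 8 batches that had at least 3 cells of each, since the split was made after the values were seen, and the difference was not tested. The median depth was 182475 UMIs in the Gzmbl3-only members and 324566 UMIs in the other members, and its part in what follows was not tested. Runx1 averaged 195 ± 71.4 CPM in the Gzmbl3-only members and 237 ± 46.3 CPM in the others, and Calca 379 ± 170 and 443 ± 329 CPM, values that lie within their spread. Nt5e averaged 74.3 ± 57.6 CPM in the Gzmbl3-only members and 177 ± 52.7 CPM in the others, and was higher in the Gzmbl3-only members in 1 of 8 batches. P2rx3 (291 ± 154 and 434 ± 90.7 CPM), Cdh1 (13.3 ± 15.6 and 42.1 ± 28.0 CPM), Cdh5 (32.1 ± 27.6 and 64.4 ± 20.3 CPM) and Nlrp5 (6.83 ± 4.92 and 35.5 ± 35.9 CPM) were likewise higher in them in 1 of 8. Slc2a1 averaged 270 ± 84.8 and 378 ± 61.9 CPM and was higher in them in 0 of 8, and Gal averaged 1866 ± 459 and 1105 ± 402 CPM and was higher in 7 of 8. Against all other cells, the Gzmbl3-only members kept Runx1 (log2 fold change 1.10), Chrne (1.75) and Calca (-1.60) past the threshold, and Nt5e (0.05, adjusted p = 0.945), Scn10a (0.10, adjusted p = 0.845) and Cdh1 (1.53, adjusted p = 0.187) did not pass. Of 107 genes examined in this way 30 no longer passed and 5 changed sign. Over all genes tested there 7.91% passed, against 27.3% with all members. Of the 29 genes without overlap 26 passed there in the same direction, but these members are a part of those whose sums picked the 29.

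**Figure D5:**
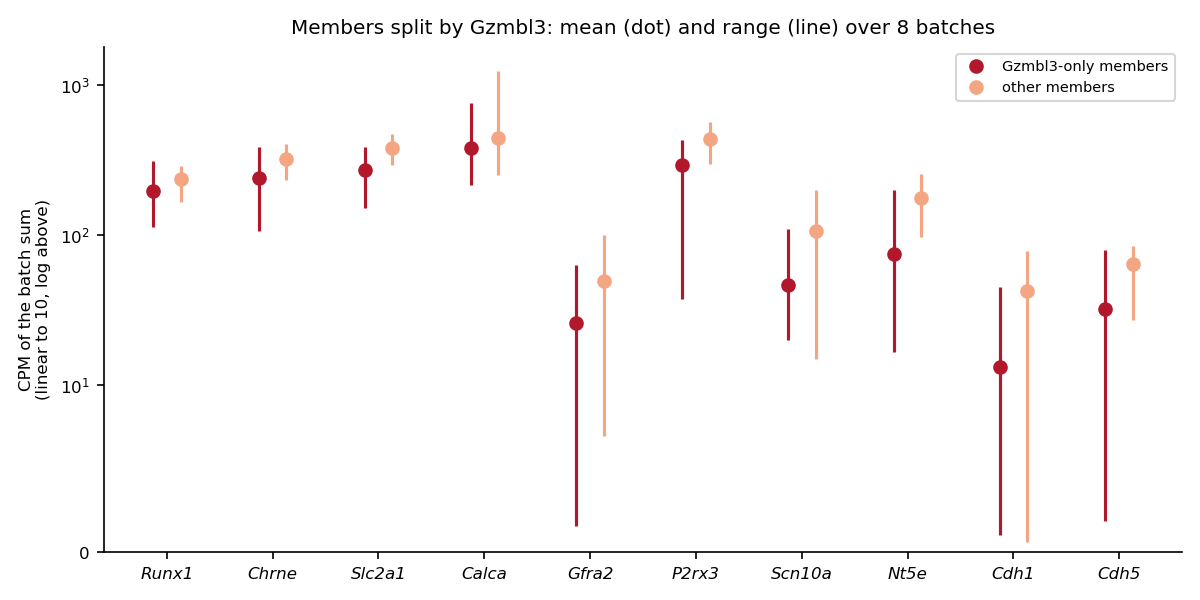
Mean (dot) and range (line) of batch sums (CPM, linear to 10 and log above) in the Gzmbl3-only members and the other members over 8 batches, for 10 genes. Runx1 and Calca lie at similar levels on both sides, and Nt5e, Scn10a, Cdh1 and Cdh5 lie lower in the Gzmbl3-only members.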

How the data were processed

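UMI counts per gene and cell were used as deposited by the authors, 32883 gene rows in each of 17 files. Per the submitters' processing notes they were made with UMI-tools, STAR, SAMtools and featureCounts of Subread on the build Rnor_6.0, and neither versions nor a strand setting could be taken from the sources used here. The 96 columns of batch 21 repeat batch 20 and were not used. The 16 batches used hold 1040 cells with distinct counts, of which the 830 kept had 20121 to 1514406 UMIs (median 186065), and cell labels recur between batches. No doublet caller was run.

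Counts were summed per batch and class (at least 3 cells) and tested with edgeR 4.0.16 (R 4.3.3, limma 3.58.1), TMM factors, filterByExpr with a minimum count of 10, the quasi-likelihood test and batch as a term, with Benjamini-Hochberg adjustment over all genes tested and a threshold of 0.05. The batch term pairs members with the other cells of the same batch. The 10 genes of the choice and Crh were kept out of all counts of calls. A gene had to pass the filter, so genes high in only some member sums went untested. Depth measures were compared by exact sign-flip permutation with scipy 1.17.1 on Python 3.11.15, and the count scripts were tested on simulated data. Alternatives included DESeq2 1.42.0, limma voom, thinning and each batch left out.

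The genes named were drawn from the 12 (6 in the narrower comparisons) with the largest fold change in each direction. Those had passed with at least 20 CPM and 1 direction in at least 80% of batches. Up to 4 per list and direction with at least 10 CPM, and a set always given, were added. The text gives a part of these. The members and lists were chosen with earlier results of these data known. CPM of batch sums are not scaled by gene length, so levels are compared between cells and not between genes. One gene of the set always given is not reported here.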

Additional observations from a re-analysis of the deposited data

Results flagged for a closer look

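A single batch stood apart from the others of its class, by the gap to its nearest neighbour relative to the whole range, for 12 of the 70 gene and class groups examined, and chance gives about 1 in 20. In the batches compared with Th cells, Nts in members was 39.3 CPM in batch 34 and 6.02 to 14 CPM in the other 4 batches. Slpi in members was 59.7 CPM in batch 31 and 19.6 to 27.6 CPM in the other 4. Tpm2 in members was 96.3 CPM in batch 25 and 1.34 to 4.68 CPM in the other 4, and Cckbr in members was 0.587 CPM in batch 25 and 9.46 to 11.6 CPM in the other 4.

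In the batches compared with Sst/Nppb cells, Calca in members was 626 CPM in batch 26 and 174 to 386 CPM in the other 8 batches, and Lamp5 in members was 5.30 CPM in batch 26 and at most 2.59 CPM in the other 8. Calb2 in members was 7.78 CPM in batch 28-3 and at most 3.24 CPM elsewhere, Emp1 was 63.3 CPM in batch 31 and at most 11.4 CPM elsewhere, and Cyba was 38.4 CPM in batch 35 and at most 3.35 CPM elsewhere. In Sst/Nppb cells, Clrn1 was 41.7 CPM and Fgf10 25.0 CPM in batch 31, against at most 11.1 and 6.30 CPM elsewhere. Runx1 in Sst/Nppb cells was 257 CPM in batch 27 and 56.1 to 156 CPM elsewhere.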

How the results depend on the processing

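Of 2754 values of named genes under alternatives, 2629 kept their side of the threshold, of which 13 changed sign with neither value passing, 82 no longer passed, 38 newly passed and 5 that had passed changed sign. The 5 came from the members that reach the threshold only with Gzmbl3, an alternative chosen after the data had been seen: P2rx3 -0.17, Gal 0.14, Anxa1 -0.0137, Synpr -0.0129 and F2rl1 -0.64. Against all other cells 1456 genes passed in cells thinned to 20000 UMIs (6039 tested) and 854 in the Gzmbl3-only members (12 batches). Against Ntsr1/Chrna3 cells the counts were 2099 with limma voom, 856 with at least 5 cells per sum (10 batches) and 323 in thinned cells. Against Th cells they were 723 with no filter, 690 with DESeq2, 726 with limma voom and 42 in thinned cells. Against Sst/Nppb cells they were 1365 with no filter, 1268 with DESeq2 and 295 in thinned cells. Thinned counts test fewer genes, and the cause of the other shifts was not tested. Without the replicate block, that is without batch pairing, 2500, 1025, 309 and 674 genes passed in the 4 comparisons. With single batches left out 1 named gene against all other cells (Piezo2) and 9 against Th cells lost their call at least once, and 5 against all other cells gained one (Ret, Gzmbl2, Sox11, Trpv1 and Trpa1). With each batch left out in turn the counts ran from 2754 to 3103, 1079 to 1542, 115 to 440 and 600 to 758. The share of passing genes that were higher moved from 44.2% to 33.0% with no filter (all-gene median -0.23) against all other cells, and there it was 53.1% with limma voom, 54.0% without the replicate block and 52.5% in thinned cells. It moved from 52.1% to 65.7% on cell means and 42.1% with limma voom against Th cells, and from 45.1% to 62.9% on cell means against Sst/Nppb cells. The difference of 500 detected genes was 260.4 with a threshold of 50 CPM, 553 with 200 CPM, 370 with at least 50000 UMIs, 415 without glia-rich cells and 442 to 649 with a batch left out. The log2 UMI difference was 0.12 with a threshold of 50 CPM and 0.20 to 0.38 with a batch left out, and it passed without batch 35 (adjusted p = 0.00647). Sums of at least 5 Th cells could not be made. Low counts limit genes such as Mrgprd and the receptors of Crh, for which a difference was not detectable at this depth.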

Other observations

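Markers of other sensory neuron classes were also measured in members. Touch-sensing C-fibre markers that had no part in the choice, 6 genes summed, were higher in members in 14 of 15 batches. Their median was 61.4 CPM in members (21.8 to 241) and 20.6 CPM in the other cells (10.3 to 72.1). Of these markers 1 of 3 tested was higher and 0 lower, with a median log2 fold change of -0.17, so the list as a whole did not rise. Against Ntsr1/Chrna3 cells only 1 marker of the list was tested, and its log2 fold change of 2.52 is the value given above for Gfra2. Of the itch neuron markers 2 of 2 tested were lower, and of the cold-sensing markers 1 of 2. Markers of myelinated neurons, which carry neurofilaments, were lower in 6 of 10 tested cases and higher in 0, with a median log2 fold change of -1.06 against all other cells, where 15.2% of all genes were lower. Their summed level had a median of 1507 CPM in members (1126 to 2608) and 2216 CPM in the other cells (1872 to 2923). Nmu, the gene of neuromedin U, averaged 28.1 ± 44.7 CPM in members and 9.88 ± 7.30 CPM in the others, and Lad1 averaged 13.8 ± 14.5 and 4.30 ± 4.35 CPM (SD, n = 15), and neither passed the threshold in edgeR's quasi-likelihood test (adjusted p = 0.586 and 0.12). Against Th cells 2 of 3 tested markers of Nmu and Lad1 neurons were higher in members and 0 lower. Against Ntsr1/Chrna3 cells 1 of 2 was higher, and against Sst/Nppb cells 0 of 1. Of the genes of cholesterol synthesis 3 of 24 tested were lower against all other cells and 0 higher. Of the immediate-early and stress genes 5 of 25 were higher there and 4 lower.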
